A study of Mus musculus with 3 samples.

Results

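CAP-D3 peaks close to the distal, telomeric ends of the mouse autosomes are described here. A peak was a member when its start lay within 5 Mb of the highest peak end found on its chromosome in either peak list, on any of 19 autosomes. That highest peak end is called the distal edge below. The rule took 414 of the 8195 peaks listed for Rb+/+ cells and 308 of the 6437 listed for RbΔL/ΔL cells, 722 of 14632 in all. It used position alone, so the number of peaks on each end, their scores, widths and overlap between genotypes were not fixed by it. One peak per chromosome, 19 in all, sits at the edge by construction.

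Primary mouse embryonic fibroblasts at passage 4 gave all 3 samples of the series. One chromatin immunoprecipitation (ChIP) library with an antibody against CAP-D3 came from Rb+/+ cells, with wild-type retinoblastoma protein. Another came from RbΔL/ΔL cells, homozygous for an allele whose protein has a mutated LXCXE-binding cleft, the surface that contacts many chromatin proteins. The third sample, input DNA, was not analysed here. With 1 library per genotype there is no replicate error, so values of the genotypes stand side by side and no p-value was computed. The labels do not say how many embryos gave the cells. The lists hold no expression values, so cell identity was not checked against markers.

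CAP-D3 is a subunit of condensin II, a ring-shaped complex that compacts chromosomes, and unlike condensin I it resides in the nucleus through interphase. The retinoblastoma protein, together with E2F1, has been reported to bring condensin II to chromatin through its LXCXE-binding cleft. Mouse chromosomes carry the centromere at one tip, so each has a single long arm whose far tip is the distal end examined here. Telomeric repeats themselves are scarcely represented in the assembly, and short reads from repeats are hard to place. The peaks described are therefore in the sequence that leads up to the telomere, not in the telomere. All positions are 1-based on mm9, counted as start to end. Whether a site is genic, exonic or intronic was not determined, since no annotation of that build was used here, and no sequence is printed for the same reason.

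Peaks were denser in the distal 5 Mb than in the remaining autosomal sequence in both lists, and the excess was uneven between chromosomes. The Rb+/+ list had 4.36 peaks per Mb in the distal 95 Mb and 3.28 in the other 2302.5 Mb. The RbΔL/ΔL list had 3.24 and 2.60. The ratio of distal to remaining density was 1.33 in Rb+/+, with an exact 95% interval from 1.199 to 1.47. It was 1.25 in RbΔL/ΔL, with an interval from 1.11 to 1.401. Both ratios include the peaks that set the edge, 11 in Rb+/+ and 8 in RbΔL/ΔL. Those peaks lie in the zone by construction, and the 5 Mb ratios without them are not given here. With the 5 Mb measured from the mm9 chromosome ends instead, the ratio was 1.26 in Rb+/+ (interval 1.14 to 1.398). In RbΔL/ΔL it was then 1.21 (interval 1.08 to 1.36). Distal peaks made up 5.19% of the autosomal Rb+/+ peaks and 4.90% of the RbΔL/ΔL peaks, on 3.96% of the sequence. They covered 1908 bp per Mb in Rb+/+, against 1434 bp per Mb elsewhere, and 1362 against 1067 bp per Mb in RbΔL/ΔL.

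These intervals treat peaks as independent, and peaks are not spread that evenly. When each autosome was cut into 5 Mb windows from its distal edge, the number of peaks per window varied 5.87 times as much as counting error gives in Rb+/+ and 4.51 times as much in RbΔL/ΔL. Allowing for that spread, a quasi-Poisson model with chromosome as a factor gave similar ratios with wider intervals. For Rb+/+ the ratio was 1.33 and the interval ran from 1.05 to 1.69. For RbΔL/ΔL the ratio was 1.26 and the interval, 0.984 to 1.61, included 1. Without chromosome 15, they were 1.24 (interval 0.961 to 1.60) and 1.13 (interval 0.875 to 1.47), and both then included 1. With both lists summed, over all autosomes, the ratio was 1.298 (interval 1.03 to 1.64).

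**Figure D1:**
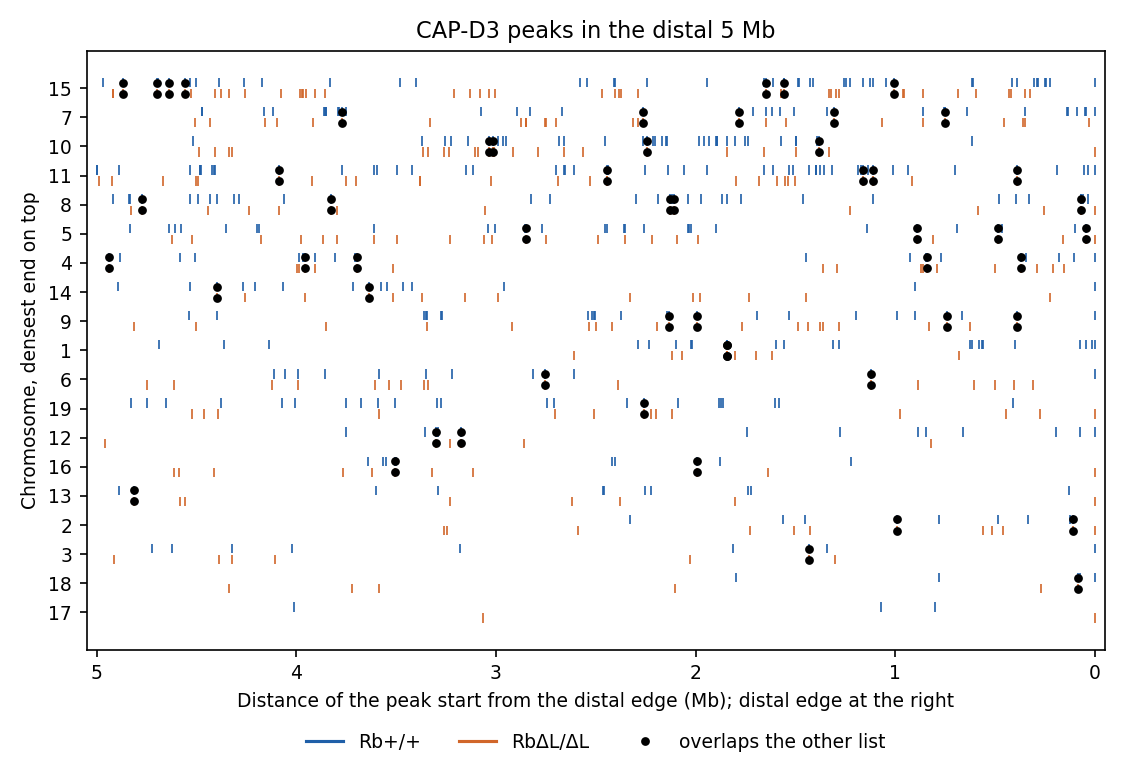
Each tick is the start of a CAP-D3 peak, by its distance in Mb from the distal edge (0 at the right). Every chromosome has a row for Rb+/+ (blue, upper) and one for RbΔL/ΔL (orange, lower), and dots mark peaks that overlap a peak of the other list. Chromosome 15, on top, carries 48 and 45 peaks and chromosome 17, at the bottom, 3 and 2.

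The distal end of chromosome 15 stood out in both genotypes. Its last 5 Mb, from 98460032 to 103460031, held 48 Rb+/+ peaks (exact Poisson interval 35.4 to 63.6) and 45 RbΔL/ΔL peaks (interval 32.8 to 60.2). That was 9.6 and 9.0 peaks per Mb, against 3.09 and 2.57 on the rest of chromosome 15, ratios of 3.11 (interval 2.24 to 4.23) and 3.497 (interval 2.49 to 4.82). It was the fullest of the 20 windows of its chromosome in both lists. With both lists summed it ranked 2 among the 471 autosomal windows.

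Chromosomes 7, 10 and 11 came next in the order of the ratio over both lists. On chromosome 7, the window from 147516655 to 152516654 held 37 Rb+/+ and 28 RbΔL/ΔL peaks, ratios of 2.12 (interval 1.48 to 2.97) and 2.195 (interval 1.44 to 3.23). It ranked 2 and 1 among 29 windows. The end of chromosome 10, from 124739479 to 129739478, held 36 and 24, ratios of 2.14 (interval 1.48 to 3.01) and 1.69 (interval 1.07 to 2.56), with ranks of 3 and 4 among 25 windows. The window of chromosome 11, from 116603360 to 121603359, held 52 and 26 peaks. This was the largest distal count in the Rb+/+ list, but the rest of chromosome 11 was also dense, at 4.99 and 3.62 peaks per Mb, and its ratios were 2.09 (interval 1.54 to 2.77) and 1.44 (interval 0.927 to 2.14). Its distal window ranked 2 and 5 among 23.

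At the other extreme were the distal ends of chromosomes 17 and 18. Chromosome 17 had 3 Rb+/+ and 2 RbΔL/ΔL peaks in its last 5 Mb, ratios of 0.164 (interval 0.0336 to 0.483) and 0.147 (interval 0.0177 to 0.538). Chromosome 18 had 5 and 6, ratios of 0.323 (interval 0.104 to 0.763) and 0.522 (interval 0.189 to 1.16). A distal end was therefore not dense on every autosome. The ratio ranged from 0.164 to 3.11 in Rb+/+ and from 0.147 to 3.497 in RbΔL/ΔL, with medians over the 19 chromosomes of 1.22 and 1.27.

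The ratio was above 1 on 11 of 19 chromosomes in Rb+/+ and on 10 of 19 in RbΔL/ΔL. On 9 chromosomes it was above 1 in both lists and on 7 below 1 in both. On chromosomes 1, 6 and 12 the lists lay on opposite sides of 1, and for none of the 19 chromosomes did the interval of the odds ratio between the lists leave out 1. Across the 19 chromosomes, the ratios of both lists were correlated (Spearman's rho 0.75, Pearson's r 0.84). Both lists share the genome, the assembly and the antibody, and chromosomes are not replicates, so no p-value is attached.

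**Figure D2:**
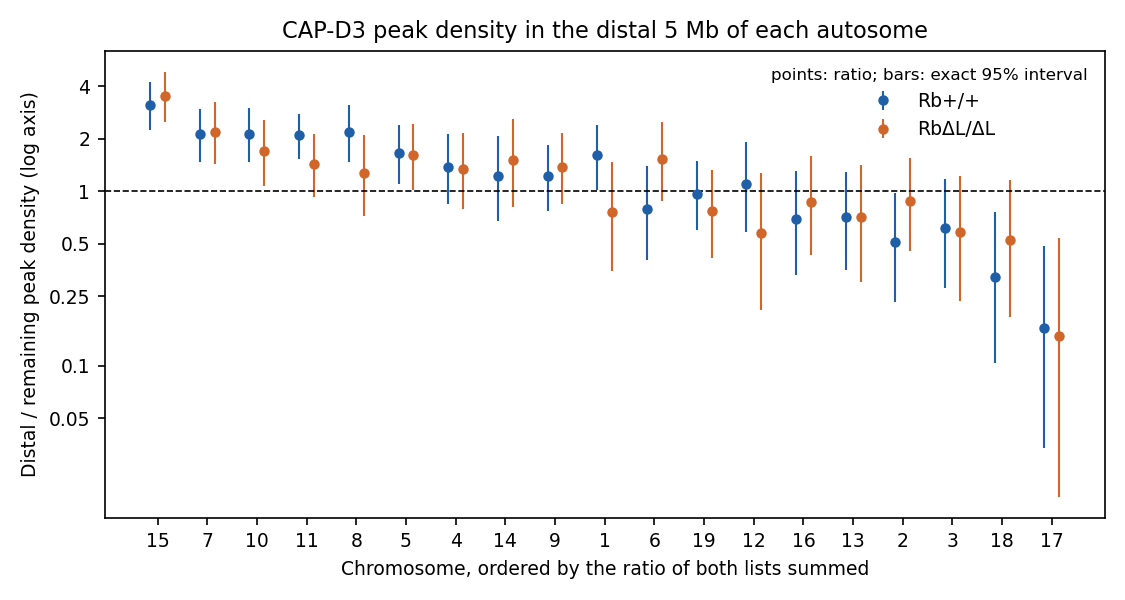
The ratio of peak density in the distal 5 Mb to that on the rest of the same chromosome (log axis) is shown for Rb+/+ (blue) and RbΔL/ΔL (orange), with exact 95% intervals as bars and a dashed line at 1. It falls from 3.11 and 3.497 on chromosome 15 to 0.164 and 0.147 on chromosome 17, and the lists lie on the same side of 1 on 16 chromosomes.

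The ends of chromosomes 15, 7, 10 and 11 together held 173 of the 414 Rb+/+ peaks (41.8%) and 123 of the 308 RbΔL/ΔL peaks (39.9%). The other 15 ends, pooled, had a ratio of 1.01 for Rb+/+ (interval 0.889 to 1.15) and 0.979 for RbΔL/ΔL (interval 0.840 to 1.13). These pooled values combine high and low ends. In Rb+/+ the ratio was 2.17 on chromosome 8 (interval 1.47 to 3.10), 1.65 on chromosome 5 (interval 1.09 to 2.396) and 1.60 on chromosome 1 (interval 1.02 to 2.41), beside the low values of chromosomes 17 and 18. In RbΔL/ΔL, chromosome 5 had 1.60 (interval 1.02 to 2.42), while the intervals of chromosome 8 (ratio 1.27) and chromosome 1 (ratio 0.764) included 1. Taking out the highest ends lowers what remains, so this split is a description. Another reading takes the ends from one list and the values from the other. The lists share the genome, the assembly and the antibody, and some of their peaks overlap. The values are therefore not independent of the choice, and their intervals cover counting error only. The 4 densest ends of the Rb+/+ list (chromosomes 7, 8, 10 and 15) had 2.16 times the remaining density in RbΔL/ΔL (113 peaks, interval 1.77 to 2.62), and the other 15 had 1.004 times (interval 0.866 to 1.16). The 4 densest ends of the RbΔL/ΔL list (chromosomes 5, 7, 10 and 15) had 2.21 times in Rb+/+ (150 peaks, interval 1.86 to 2.61), and the others 1.08 times (interval 0.953 to 1.22). All 4 ends chosen in either list had a ratio above 1 in the other list, though the RbΔL/ΔL interval of chromosome 8 included 1.

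Distal windows were also set against all windows of the same length. In Rb+/+, 7 of 19 distal windows (36.8%) reached 1.5 times the mean of the windows of their chromosome, against 19.3% of all 471 windows. In RbΔL/ΔL, 5 of 19 (26.3%) did, against 18.0% of all. The distal window ranked first on 1 chromosome in Rb+/+, chromosome 15, and on 2 in RbΔL/ΔL, chromosomes 7 and 15. Distal windows held from 3 to 52 Rb+/+ peaks with a median of 21, while the other windows had a median of 14 and reached 65. In RbΔL/ΔL they held from 2 to 45 with a median of 14, against a median of 12 and a highest count of 43 elsewhere. No window outside the distal ends held as many RbΔL/ΔL peaks as the end of chromosome 15.

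**Figure D3:**
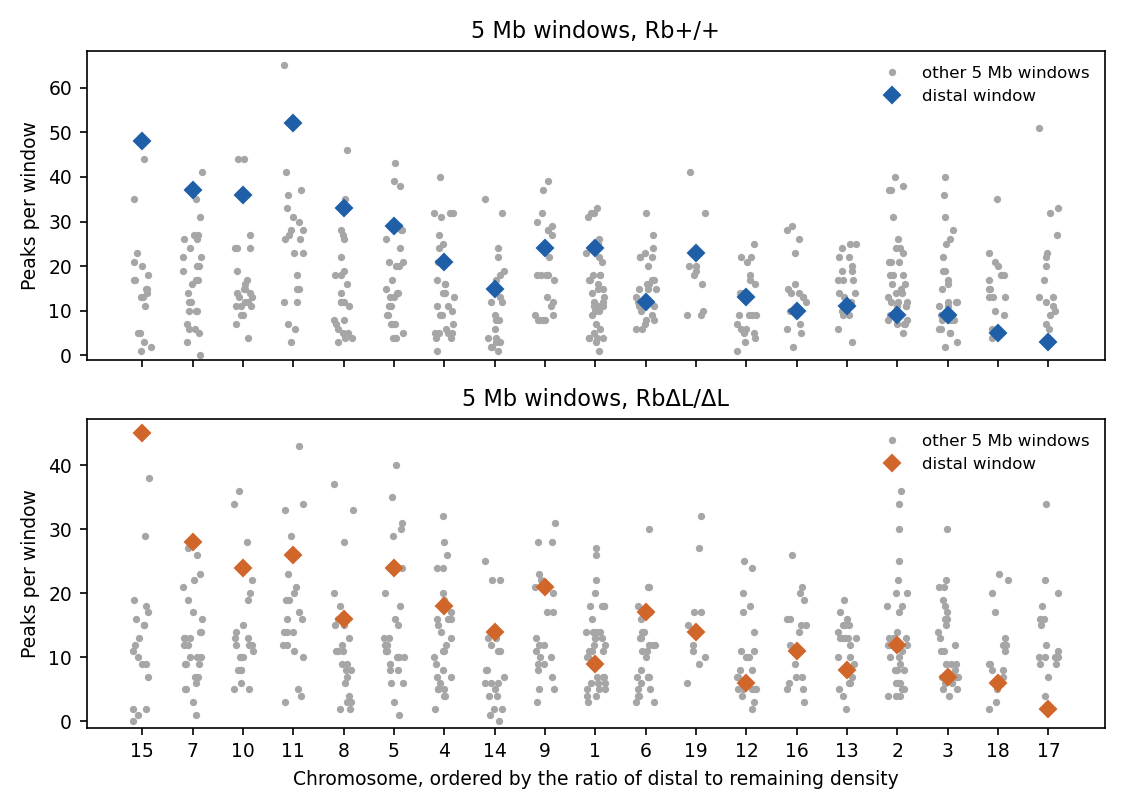
Peaks per 5 Mb window are shown for each autosome, with the distal window as a diamond and the other windows of that chromosome as grey points (jittered sideways), Rb+/+ above and RbΔL/ΔL below. The diamond lies above all grey points on chromosome 15 in both lists and on chromosome 7 in RbΔL/ΔL, and below all of them on chromosome 17 in RbΔL/ΔL.

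Peak density did not climb steadily towards the telomeric end. In the last Mb before the distal edge there were 92 Rb+/+ and 65 RbΔL/ΔL peaks, 1.47 times (interval 1.19 to 1.81) and 1.32 times (interval 1.02 to 1.68) the density outside the distal 5 Mb. From 1 to 2 Mb there were 98 and 54, 1.57 times (interval 1.28 to 1.91) and 1.10 times (interval 0.823 to 1.43). From 2 to 3 Mb there were 78 and 58, and from 4 to 5 Mb 75 and 57, with all intervals including 1. Between 3 and 4 Mb the order of the lists turned, with 71 Rb+/+ and 74 RbΔL/ΔL peaks, 1.14 times (interval 0.889 to 1.44) and 1.501 times (interval 1.18 to 1.88). Chromosome 15 held 3 and 11 of these peaks. Without it the turn in counts was gone, with 68 Rb+/+ and 63 RbΔL/ΔL peaks. The turn in relative density remained. RbΔL/ΔL then had a ratio of 1.35 (interval 1.04 to 1.725), while that of Rb+/+ was 1.15 (interval 0.891 to 1.45). Some other chromosomes, such as 5 and 10, also held more RbΔL/ΔL than Rb+/+ peaks in this bin, and some, such as 7, held fewer. All 5 bins lay above 1 in both lists, except that without chromosome 15 the RbΔL/ΔL bins from 1 to 2 Mb and from 4 to 5 Mb gave 0.984 and 0.963. With all autosomes, 2 of 5 had an interval above 1 in each list, though not the same ones beyond the last Mb.

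Further into the arm there were bins as dense as the last Mb. The fullest of the 20 bins of 1 Mb next to the edge lay 14 to 15 Mb from it in both lists, with 110 Rb+/+ peaks (1.76 times, interval 1.45 to 2.13) and 85 RbΔL/ΔL peaks (1.72 times, interval 1.377 to 2.13). Of the 15 bins between 5 and 20 Mb, 5 in Rb+/+ and 4 in RbΔL/ΔL had an interval above 1. The intervals of all bins cover counting error only. Counts per 5 Mb window varied more than that, so the bin intervals are too narrow. At 10 to 11 Mb the density dropped to 0.818 times (51 peaks, interval 0.609 to 1.075) and 0.608 times (30 peaks, interval 0.411 to 0.869). In both lists, the bins of the distal 5 Mb were thus less dense than the fullest bin further into the arm. In that bin, chromosome 5 held 21 of the 110 Rb+/+ peaks and chromosome 11 held 12 of the 85 RbΔL/ΔL peaks. Whether single arms follow this summed profile was not tested.

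**Figure D4:**
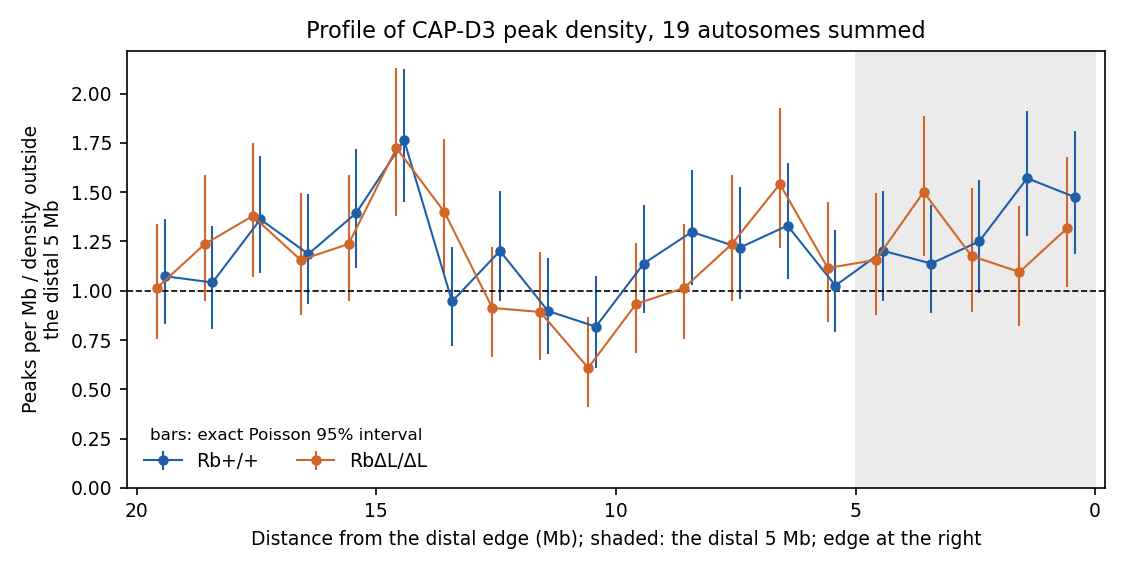
Peak density in bins of 1 Mb, summed over 19 autosomes and divided by the density outside the distal 5 Mb, is plotted against distance from the distal edge (edge at the right, distal 5 Mb shaded), with exact Poisson 95% intervals as bars. The highest bin of both lists is 14 to 15 Mb from the edge, at 1.76 and 1.72, above every bin of the shaded zone.

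The very last stretch needs care, because the edge is itself a peak. The last 100 kb held 28 Rb+/+ and 13 RbΔL/ΔL peaks, of which 11 and 8 set the edge. Without these, 17 Rb+/+ peaks on 7 chromosomes remained, 2.73 times the remaining density (interval 1.59 to 4.36), and 5 RbΔL/ΔL peaks on 4 chromosomes, 1.01 times (interval 0.329 to 2.37). The fullest last 100 kb was that of chromosome 8, with 4 Rb+/+ peaks beside the edge. Over the last Mb the ratios without edge peaks were 1.30 (interval 1.03 to 1.61) and 1.16 (interval 0.876 to 1.498). Measured from the end of each chromosome in mm9 instead, the last Mb held 1.04 times (interval 0.804 to 1.33) and 1.02 times (interval 0.754 to 1.34) the remaining density. The distal edge lay 7.90 kb before the mm9 end on chromosome 7, 10.7 kb on chromosome 18 and 20.9 kb on chromosome 16, the closest, and 1955 kb before it on chromosome 1, the farthest.

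The fullest megabases of the distal zone were on chromosomes 11, 15 and 10. One on chromosome 11, from 119603360 to 120603359, contained 18 Rb+/+ and 8 RbΔL/ΔL peaks. From 101460032 to 102460031 on chromosome 15 there were also 18 and 8, and from 98460032 to 99460031, at the inner border of the zone, 11 and 12. Chromosome 10 from 127739479 to 128739478 had 15 and 5, and the last Mb of chromosome 15 had 11 and 9. In the order given, 2, 3, 4, 1 and 0 of the Rb+/+ peaks of these megabases overlapped a RbΔL/ΔL peak. Of all autosomal Rb+/+ peaks 13.2% did, so low counts are not particular to these megabases. Over the 95 megabases of the zone, 15 held no Rb+/+ peak, 13 no RbΔL/ΔL peak and 4 neither. Counts of both lists rose and fell together across megabases (Spearman's rho 0.63 over 95 neighbouring megabases of the same genome, given as a description).

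The share of distal sites found in both genotypes was close to that elsewhere. Of the 414 Rb+/+ peaks, 55 (13.3%, exact binomial interval 10.2 to 16.9%) shared at least 1 bp with a RbΔL/ΔL peak, against 13.2% of all autosomal Rb+/+ peaks. In the RbΔL/ΔL list the share was 55 of 308 (17.9%, interval 13.7 to 22.6%), against 16.7% of all. The distal share differed from that of the other autosomal peaks by 0.124 percentage points in Rb+/+ (Newcombe interval -2.91 to 3.81) and by 1.17 in RbΔL/ΔL (interval -2.82 to 5.93). All 55 matches were pairs of a single peak in each list, and they lay on 18 of the 19 chromosomes, with none on chromosome 17.

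Whether a distal peak had a counterpart followed its score, the value by which the authors' peak caller ranks peaks within a list. All 18 Rb+/+ and all 13 RbΔL/ΔL distal peaks with a score of 200 or more overlapped the other list, which allows shares down to 81.5% and 75.3%. Elsewhere 387 of 403 and 246 of 247 did. Between 100 and 200, 15 of 35 (42.9%) and 15 of 29 (51.7%) overlapped, and below 60 only 6 of 162 (3.70%) and 3 of 104 (2.88%). In each of the 4 score bands, the interval of the difference between distal and other peaks included 0 in both lists.

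**Figure D5:**
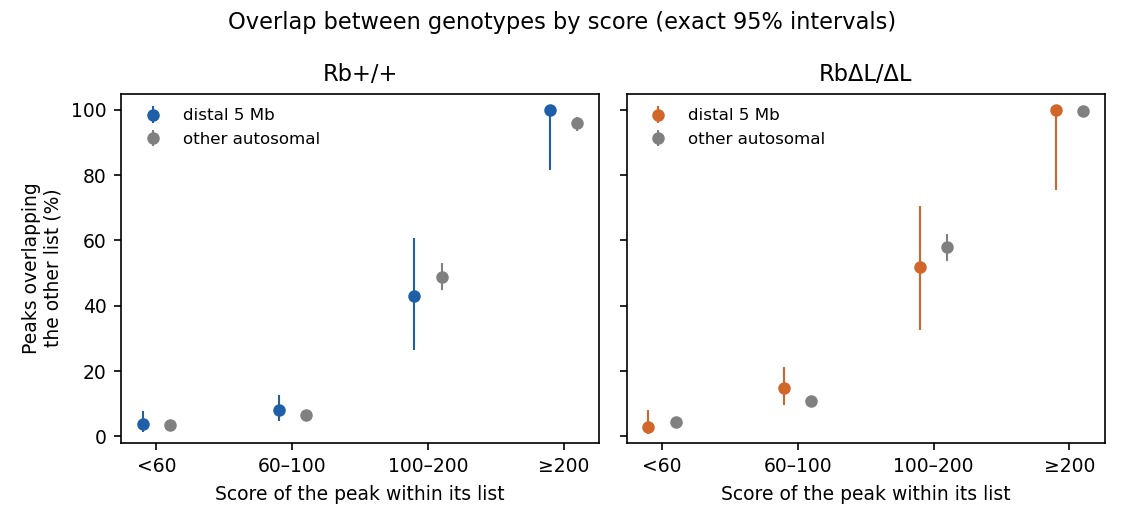
The percentage of peaks overlapping the other list is shown by score band, Rb+/+ on the left and RbΔL/ΔL on the right, for distal peaks (coloured) and other autosomal peaks (grey), with exact binomial 95% intervals as bars. Both climb together, from 3.70% and 2.88% of distal peaks below a score of 60 to 100% at 200 or more.

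The strongest distal site was the same in both genotypes. This chromosome 9 site ran from 121627787 to 121628443 in Rb+/+, with a score of 843.75 that ranked 19 among autosomal peaks. In RbΔL/ΔL it ran from 121627861 to 121628459, scored 655.67 and ranked 21. It was 2.13 Mb from the edge. None of the 18 highest-scoring Rb+/+ autosomal peaks was therefore distal, though only 5.19% of all autosomal Rb+/+ peaks were. A score of 200 or more was reached by 4.35% of distal and 5.33% of other Rb+/+ peaks. In RbΔL/ΔL the shares were 4.22% and 4.13%. Next in Rb+/+ were chromosome 8 at 126472777 to 126473426 (scored 822.47) and chromosome 10 at 126703151 to 126703628 (scored 706.73). Their RbΔL/ΔL partners stood lower in that list, at ranks 121 and 188 against 21 and 39 in Rb+/+.

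Chromosome 11 at 119160829 to 119161942 (scored 610.68) was both the fourth by score and the widest distal Rb+/+ peak, at 1114 bp. The RbΔL/ΔL peak inside it, at 119161302 to 119161803, was 502 bp wide (scored 490.45, rank 41). Chromosome 15 at 98593404 to 98593905 (scored 515.63) was the fifth and had a wider partner in RbΔL/ΔL, 689 bp from 98593339 to 98594027 (scored 359.03). In the RbΔL/ΔL list, chromosome 4 at 151413250 to 151413552 (scored 506.17) took rank 36, where its Rb+/+ partner took rank 181 (scored 370.26). A further chromosome 4 site, at 151671191 to 151671504 (scored 332.95), completed the first 5 of that list, with a Rb+/+ partner of score 459.11. Scores rank peaks within a list, so a difference in score between lists is not a difference in binding.

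Over the 55 distal pairs, scores in the lists were correlated (Spearman's rho 0.77, against 0.75 in 976 pairs elsewhere). In 24 of the 55 both scores reached 100 and in 18 neither did, against 490 and 257 of the 976 pairs elsewhere. The Rb+/+ peak was the wider one in 38 of 55 pairs (69.1%, interval 55.2 to 80.9%), as in 68.9% of pairs elsewhere, with median widths of 515 and 440 bp. Midpoints of paired peaks were a median of 66 bp apart, and at most 500.5 bp.

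Distal peaks found in a single list had lower scores, with medians of 61.6 in Rb+/+ and 63.01 in RbΔL/ΔL, against 135.6 and 101.28 for those with a counterpart. The highest-scoring Rb+/+ ones lay on chromosome 10 at 126747965 to 126748715 (scored 161.78) and 127053109 to 127054029 (scored 161.06), chromosome 9 at 121619326 to 121619780 (scored 154.35), chromosome 15 at 103069557 to 103070388 (scored 154.22) and chromosome 6 at 146673120 to 146673590 (scored 153.78). The chromosome 9 peak stood 8.01 kb from the strongest distal site. For the first 4, a RbΔL/ΔL peak lay within 8.08 to 28.1 kb, and for the chromosome 6 peak the nearest was 146 kb away. In RbΔL/ΔL the corresponding peaks were chromosome 4 at 155079053 to 155079459 (scored 165.73) and 155158014 to 155158885 (scored 124.12), chromosome 10 at 126478879 to 126479281 (scored 149.96) and chromosome 15 at 99125206 to 99125604 (scored 118.84) and 99384057 to 99384683 (scored 113.56). Their nearest Rb+/+ peaks were 5.23 to 95.5 kb away. A site without a peak in a list had none above the caller's threshold there, and its signal below the threshold is unknown.

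Most single-list peaks had neighbours in the other list. The 359 Rb+/+ distal peaks without a counterpart had a RbΔL/ΔL peak at a median distance of 57.5 kb, against 79.4 kb for such peaks elsewhere. Within 100 kb, 66.6% (interval 61.4 to 71.4%) of them had a RbΔL/ΔL neighbour, against 56.6% (interval 55.3 to 57.8%) elsewhere. For the 253 RbΔL/ΔL distal peaks, the median was 51.4 kb against 67.4 kb, and the shares within 100 kb were 64.8% (interval 58.6 to 70.7%) and 60.8% (interval 59.4 to 62.1%). The other list is also denser in the distal zone, which by itself brings its peaks closer, and the part of density in these distances was not tested.

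The widths and scores of distal peaks were close to those of the others. The median width was 434 bp in Rb+/+ (quartiles 364 and 476) against 428 bp elsewhere, and 414.5 bp in RbΔL/ΔL (quartiles 350.75 and 469) against 413 bp. Widths ran from 186 to 1114 bp and from 192 to 1113 bp, and a single peak in each list was wider than 1 kb. The RbΔL/ΔL one was on chromosome 7 at 149668954 to 149670066 (scored 110.35) and had no Rb+/+ counterpart. A score of 100 or more was reached by 53 Rb+/+ distal peaks (12.8%, against 12.8% of all autosomal ones) and 42 RbΔL/ΔL ones (13.6%, against 13.2%). Median scores were 62.98 and 65.18, against 62.19 and 65.68 elsewhere. The widest of the far more numerous peaks elsewhere reached 3804 and 3842 bp, and none of the distal ones came near that width. The share wider than 1 kb was 0.242% of distal and 0.304% of other peaks in Rb+/+. In RbΔL/ΔL it was 0.325% and 0.167%, and the interval of the difference included 0 in both lists.

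Peaks lay closer together at the distal ends in the Rb+/+ list, where they were also denser. A denser zone has closer neighbours even when peaks are spread evenly, and the part of density in these shares was not tested. There, 96 of 414 peaks (23.2%, interval 19.2 to 27.6%) had another Rb+/+ peak within 10 kb, against 17.3% of all autosomal peaks, and the share exceeded that of the other peaks by 6.23 percentage points (interval 2.33 to 10.6). In RbΔL/ΔL, 30 of 308 (9.74%, interval 6.67 to 13.6%) did, against 12.2% of all, a difference from the others of -2.58 points (interval -5.54 to 1.33). Neighbours share their call, so chains of peaks within 10 kb were also counted once, as 1 site. Then 44 of 362 Rb+/+ sites (12.2%) were groups of 2 or more peaks, against 8.58% elsewhere, and 14 of 292 RbΔL/ΔL sites (4.79%), against 6.11%.

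The contrast between distal and other sites differed between the lists by an odds ratio of 1.91 (Woolf interval 1.01 to 3.61). It was 1.19 on chromosomes 7, 10, 11 and 15 (interval 0.539 to 2.64) and 6.43 on the others (interval 1.47 to 28.1), where RbΔL/ΔL had only 2 groups among 183 distal sites. With the Rb+/+ list cut to its 6437 highest-scoring peaks, 23 of 292 distal sites (7.88%) were groups, against 7.22% elsewhere, and the odds ratio was 1.42 (interval 0.705 to 2.86). With 1 library per genotype, genotype and library cannot be told apart.

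The groups were small. In Rb+/+ there were 37 pairs and 7 groups of 3 or more peaks on 14 chromosomes in all, with a median span of 5.69 kb and a longest of 17.9 kb. RbΔL/ΔL had 12 pairs and 2 groups of 3, on 6 chromosomes, with a median span of 2.81 kb. The largest was a run of 4 Rb+/+ peaks on chromosome 7 at 148654044 to 148665098, with scores from 53.31 to 66.82 and no RbΔL/ΔL peak within 10 kb. Another on chromosome 7, 3 peaks at 151760232 to 151768560, held a Rb+/+ peak of score 273.82 with a RbΔL/ΔL counterpart of score 131.27. Chromosome 11 at 117120976 to 117127804 and chromosome 10 at 127842813 to 127848777 each held 3 Rb+/+ peaks and no RbΔL/ΔL peak within 10 kb. A run of 3 on chromosome 9 spanned 17.6 kb from 120401491 to 120419112.

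In RbΔL/ΔL, the groups of 3 lay on chromosome 7 at 149667191 to 149670066, which includes the widest distal peak of that list, and on chromosome 15 at 99479293 to 99493044. Neither had a Rb+/+ peak within 10 kb. Pairs followed on chromosome 11 at 119159453 to 119161803, which includes the strong shared site there, on chromosome 1 at 193398816 to 193399812, where both peaks overlapped Rb+/+ peaks, and on chromosome 10 at 126725399 to 126727889. No group of either list held more than 4 peaks. Groups elsewhere on the autosomes reached 7 in Rb+/+ and 6 in RbΔL/ΔL. They were also far more numerous, 589 and 341 against 44 and 14, which by itself allows a larger maximum. Groups of 3 or more held 5.31% of the distal Rb+/+ peaks, against 3.39% of the others. In RbΔL/ΔL they held 1.95%, against 2.31%.

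Close neighbours were found mostly where the ends were dense. On the ends of chromosomes 7, 10, 11 and 15, 52 of 173 Rb+/+ peaks (30.1%, interval 23.3 to 37.5%) had a neighbour within 10 kb, and on the other 15 ends 44 of 241 (18.3%, interval 13.6 to 23.7%). In RbΔL/ΔL these shares were 26 of 123 (21.1%, interval 14.3 to 29.4%) and 4 of 185 (2.16%, interval 0.592 to 5.44%). These ends were picked for their density, and a denser end has closer neighbours even when peaks are spread evenly, so the shares describe the same feature again. The share overlapping the other list was 12.1% on the dense ends and 14.1% on the other ends in Rb+/+, and 17.1% and 18.4% in RbΔL/ΔL.

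The ratio of distal peak numbers between the genotypes was close to the ratio elsewhere. There were 1.34 distal Rb+/+ peaks for each RbΔL/ΔL peak (interval 1.16 to 1.56), and 1.27 elsewhere (interval 1.22 to 1.31), an odds ratio of 1.06 (interval 0.911 to 1.24). By distance, the odds ratio to the rest was above 1 in the bin from 1 to 2 Mb (98 against 54 peaks, odds ratio 1.43, interval 1.02 to 2.04), and the intervals of the other 4 bins included 1. That bin was uneven between chromosomes. Chromosomes 10, 11 and 15 had the most Rb+/+ peaks in it (15, 18 and 18, against 5, 8 and 8 in RbΔL/ΔL). On chromosomes 2, 4, 9 and 14 the RbΔL/ΔL list had more. The odds ratio was lowest from 3 to 4 Mb, at 0.758 (interval 0.539 to 1.067), where chromosome 15 held 3 Rb+/+ and 11 RbΔL/ΔL peaks.

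The border of 5 Mb was set by the rule. Over the 19 autosomes, within 50 kb of it, 3 Rb+/+ and 2 RbΔL/ΔL peaks lay inside and 3 and 2 outside. Just inside were the chromosome 11 peaks at 116603977 to 116604452 in Rb+/+ and 116615648 to 116615957 in RbΔL/ΔL (4.99938 and 4.98771 Mb from the edge), and just outside the chromosome 14 peak at 119934927 to 119935431 and the chromosome 9 peak at 118755283 to 118755612 (5.01028 and 5.00608 Mb).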

How the data were processed

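The submitters' processing notes name Bowtie 1.0, MACS 1.4.2 and the build mm9. Settings, the caller's control and the handling of duplicate or multiply mapping reads, which bear on weak peaks and on repeat-rich chromosome ends, are not stated there. The authors deposited 1 peak list per ChIP library, with a position and a peak caller's score per peak. The score, from 50.02 up in both lists, has no stated unit and was used to rank, band and filter within a list. Read depth is unknown.

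Starts were converted to 1-based. The part of each arm before the zone ran from the lowest listed start to the zone. Density ratios have exact conditional binomial intervals, counts exact Poisson, shares exact binomial, differences of shares Newcombe, and odds ratios conditional or Woolf intervals, all at 95% and for counting error only. Neighbouring peaks are not independent, so quasi-Poisson intervals over 5 Mb windows were added. Peaks overlapped if they shared 1 bp, and 10 kb defined neighbours. Peaks named are the 5 highest-scoring per list and the 5 highest without a counterpart, the widest, the 5 largest groups, the 5 fullest megabases, and the 4 densest and 2 sparsest ends. Members, lists and rules were chosen with earlier results of these data known. The code was tested on simulated data. Python 3.11.15, numpy 2.4.6, pandas 2.3.3, scipy 1.17.1 and mm9 lengths of GenomeInfoDb 1.38.1 were used. Peaks on X were left out by the rule. The tables of later-build genes and promoters were not used.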

Additional observations from a re-analysis of the deposited data

Results flagged for a closer look

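In 26 comparisons of the distal contrast between the lists (19 chromosomes, 5 bins, the whole zone and the share of groups), 2 intervals left out 1, at a 95% level at which about 1 in 20 would do so without any difference. From 1 to 2 Mb from the distal edge, Rb+/+ peaks were more frequent relative to the rest than RbΔL/ΔL peaks (odds ratio 1.43, interval 1.02 to 2.04). Chromosomes 10, 11 and 15 had the most Rb+/+ peaks there (15, 18 and 18, against 5, 8 and 8). On chromosomes 2, 4, 9 and 14 the RbΔL/ΔL list had more. The share of distal sites that were groups of peaks, relative to the rest, was higher in Rb+/+ than in RbΔL/ΔL (odds ratio 1.91, interval 1.01 to 3.61). With lists of equal length that odds ratio was 1.42 (interval 0.705 to 2.86). The 26 do not include its splits by chromosome given above, where the interval without chromosomes 7, 10, 11 and 15 (1.47 to 28.1) also left out 1. All these contrasts compare 1 library with 1 library, and neighbouring peaks are not independent.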

How the results depend on the processing

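The 25 results were recomputed 147 times under other settings, and 117 values stayed close and 30 moved. No ratio whose interval excluded 1 crossed to the other side of 1, but 5 values of bins whose intervals included 1 did. Close meant within 1.5 times for numbers, within the quartiles for widths and within the 95% interval otherwise. The quasi-Poisson model, edge peaks left out, the profile without chromosome 15, clustering without the dense ends, groups as a share of sites and the choice of dense ends in one list were added after seeing the data. With a minimum score of 100, 53 and 42 distal peaks remained (Rb+/+ first), overlap was 45.3% and 57.1%, close neighbours 3.77% and 4.76% and the Rb+/+ median width 530 bp. The density ratios were then 1.33 and 1.29, with intervals that included 1. At that score the bins gave 0.877 (3 to 4 Mb, Rb+/+) and, in RbΔL/ΔL, 2.00 (0 to 1 Mb), 1.54 (1 to 2 Mb), 0.923 (2 to 3 Mb) and 0.769 (4 to 5 Mb). Without chromosome 15, RbΔL/ΔL gave 0.984 (1 to 2 Mb) and 0.963 (4 to 5 Mb). A zone of 2 Mb held 190 and 119 peaks, a density ratio of 1.52 for Rb+/+ and 1.199 for RbΔL/ΔL (interval 0.991 to 1.44), a ratio of lists of 1.60, and, in RbΔL/ΔL, 22.7% overlap and 19.3% scores of 100 or more. A zone of 10 Mb held 789 and 596 peaks. Measured from the mm9 ends, the last Mb gave 1.04 and 1.02. With lists of equal length, Rb+/+ had 16.6% scores of 100 or more and 15.9% close neighbours, and the ratio of lists was 1.04. Neighbours within 1 kb were 3.86% and 3.57%, within 100 kb 76.8% and 58.8%, and without chromosomes 7, 10, 11 and 15 18.3% and 2.16%. Leaving out each chromosome in turn, the density ratio ran from 1.24 to 1.397 in Rb+/+ and from 1.13 to 1.31 in RbΔL/ΔL, where the interval included 1 without chromosome 15 (0.991 to 1.27). The cause of these shifts was not tested. No paired analysis was possible because there was 1 library per genotype, so none could be left out either.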
